A study of Mus musculus with 6 samples.

Results

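The ERK pathway feedback genes are transcripts that ERK, the last kinase of the RAS pathway, switches on and whose proteins in turn restrain the pathway, together with Etv4 and Etv5, transcription factors induced in the same way. The 10 genes are Dusp6, Dusp4, Dusp5, Spry1, Spry2, Spry4, Spred1, Spred2, Etv4 and Etv5, and all 10 were measured among 22180 genes. The set was chosen by the low signal of Dusp6 in 5XFAD tissue in this same comparison, and the other 9 genes were added by name as fellow ERK targets. The difference of Dusp6 is therefore given as a description, with no test. The other 9 were tested, with earlier results of these data known when they were listed.

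RNA came from the layers behind the retina, that is the pigmented epithelium (RPE), the vascular choroid and the fibrous sclera. Tissue of heterozygous 5XFAD mice aged 12 months gave 3 samples, and tissue of their non-transgenic wild-type littermates of the same age gave 3 more. No animal was treated. 5XFAD mice carry human amyloid precursor protein and presenilin transgenes with familial Alzheimer's disease mutations, driven by the neuronal Thy1 promoter. The comparison asks whether the low Dusp6 signal extends to other genes that ERK controls. The labels do not say whether each sample came from 1 animal, so p-values reflect only how far these samples scatter, part of which may be technical.

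Growth factors bind receptor tyrosine kinases, which activate RAS and then the kinases RAF, MEK and ERK. ERK phosphorylates transcription factors of the ETS family and lifts the repressor capicua from its targets, and the feedback genes are among the transcripts that then appear. Their messages are short-lived, so they are widely used as a readout of recent ERK activity. In developing chick and mouse eyes, FGF signals through ERK push presumptive RPE towards neural retina.

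Each sample was hybridised to 1 Affymetrix array, and all levels are log2 intensities after RMA, a background correction, quantile normalization and summary of each probe set, so that a difference of 1 is a doubling. The number of arrays limits the precision. Array medians ran from 5.65 to 5.68 in 5XFAD and from 5.59 to 5.71 in wild type, and correlations between arrays from 0.981 to 0.990 within groups. Wild type replicate 2 correlated least with the other arrays on average (0.984). Of 12 RPE markers, 11 lay above the array median on every array, as did all 11 fibroblast and sclera markers. With limma and a Benjamini-Hochberg adjusted p under 0.05, 5 of 22180 genes passed, which is 0.0225%, with 5 higher and 0 lower in 5XFAD. After a repeated quantile normalization the split was 6 higher and 1 lower.

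Dusp6 encodes the cytoplasmic phosphatase that removes the activating phosphates from ERK. Its signal was 9.70, 9.39 and 9.34 on the 5XFAD arrays, against 10.40, 10.55 and 10.26 on the wild-type arrays. The groups lay well apart, and the highest 5XFAD array was still below the lowest wild-type array. Means were 9.48 ± 0.20 in 5XFAD and 10.40 ± 0.15 in wild type (SD, n = 3 each, as for all means given here). The log2 difference of -0.92 (5XFAD minus wild type, SE 0.13) is a 0.527-fold level and was the 6th lowest of the 22180 differences. In bulk tissue fewer cells of a type and less RNA per cell cannot be told apart. A further Dusp6 probe set, 17547559, was dim, at percentile 15.2 of all probe sets with 1 symbol, against 98.3 for the probe set kept, 17236882. It read 3.84, 3.79 and 3.96 in 5XFAD and 4.36, 4.27 and 4.02 in wild type, a difference of -0.35 (SE 0.12) with no overlap of the groups.

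Dusp4 and Dusp5 encode nuclear phosphatases of the same family. Dusp4 read 8.14, 7.88 and 8.03 in 5XFAD and 8.35, 8.83 and 8.59 in wild type. Every 5XFAD array was below every wild-type array, although 5XFAD replicate 1 and wild type replicate 1 lay close to each other. The difference was -0.57 (SE 0.14), a 0.672-fold level, and did not pass the adjusted threshold (limma, Benjamini-Hochberg adjusted p = 0.43). Dusp5 read 5.90, 5.92 and 6.07 in 5XFAD and 5.75, 5.90 and 6.08 in wild type, so the groups overlapped almost fully. Its difference was 0.055 (SE 0.12, 95% interval -0.20 to 0.32), the only positive one among the 10 genes (limma, Benjamini-Hochberg adjusted p = 0.97), and it was -0.024 without wild type replicate 1. With wild type replicate 3 left out it was 0.14, and with 5XFAD replicate 1 or replicate 3 left out it was 0.086 or 0.0026.

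The RefSeq promoter windows of 3 members are shown because they held a match to a searched motif. They set Dusp6 beside Spry2, a member with a negative difference, and beside Dusp5. Each runs 5′ to 3′ along the gene, from 250 bases before the RefSeq start and for 50 bases from it, on GRCm38.p6. Capitals mark the matches, all read on both strands. The search covered the octamers bound by capicua (TGAATGAA, TGAATGGA, TCAATGAA and TCAATGGA), an ETS site (CCGGAAGT), the AP-1 site (TGANTCA), the CRE (TGACGTCA) and the CArG box of serum response elements.
Dusp6, chr10:99262981-99263280, plus strand: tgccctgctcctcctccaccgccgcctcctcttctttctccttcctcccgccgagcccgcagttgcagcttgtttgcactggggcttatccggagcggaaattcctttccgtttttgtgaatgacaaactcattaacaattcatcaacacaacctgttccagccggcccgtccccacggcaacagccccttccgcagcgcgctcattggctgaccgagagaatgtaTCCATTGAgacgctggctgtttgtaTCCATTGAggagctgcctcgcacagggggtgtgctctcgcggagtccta
Spry2, chr14:105896770-105897069, minus strand: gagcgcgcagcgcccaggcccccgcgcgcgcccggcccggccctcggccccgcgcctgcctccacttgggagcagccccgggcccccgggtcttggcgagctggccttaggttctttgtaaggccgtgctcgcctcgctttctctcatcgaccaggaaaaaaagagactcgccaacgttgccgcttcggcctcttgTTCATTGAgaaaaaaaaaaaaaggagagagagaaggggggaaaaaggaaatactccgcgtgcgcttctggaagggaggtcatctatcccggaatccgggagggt
Dusp5, chr19:53528895-53529194, plus strand: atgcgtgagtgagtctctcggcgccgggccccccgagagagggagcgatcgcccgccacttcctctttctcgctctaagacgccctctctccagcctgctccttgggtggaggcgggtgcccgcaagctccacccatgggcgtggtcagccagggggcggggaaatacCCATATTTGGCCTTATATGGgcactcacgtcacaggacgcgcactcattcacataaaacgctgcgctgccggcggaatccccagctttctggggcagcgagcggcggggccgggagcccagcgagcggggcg

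The Dusp6 window holds TCAATGGA 2 times on the opposite strand, with matches 24 to 17 bases before the start and 2 to 9 bases from it, counting the start as base 1. The Spry2 window holds TCAATGAA once, also on the opposite strand, 54 to 47 bases before the start. The Dusp5 window has no such octamer and holds a pair of adjoining CArG boxes, printed as 1 run of capitals. RefSeq windows were found for 7 of the 10 genes, and 2 of these 7 held any of the 4 octamers, against 3.84% of all 32851 windows. The windows of Spry1, Spred1, Spred2 and Etv5, whose differences were negative too, held none of the searched motifs. A link between motifs and differences was not tested. TCAATGGA stands in 0.67% of all windows, TCAATGAA in 0.749%, TGAATGAA in 1.3%, TGAATGGA in 1.21% and the CArG box in 1.63%. No member window matched the ETS site (3.89% of all windows), the AP-1 site (7.81%) or the CRE (1.79%). A match is a description of the letters and not of a bound factor.

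Sprouty proteins block the step from receptors to RAS, and Spred proteins recruit neurofibromin to switch RAS off. All 5 of these genes had a negative difference, from -0.41 for Spry2 to -0.13 for Spred2. Spry2 read 7.47, 7.43 and 7.78 in 5XFAD and 7.97, 8.07 and 7.87 in wild type. The groups did not overlap, but 5XFAD replicate 3 lay close to wild type replicate 3. Its difference of -0.41 (SE 0.12), a 0.751-fold level, did not pass (limma, Benjamini-Hochberg adjusted p = 0.56).

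Spry1, the Sprouty gene best known for restraining signals of the receptor Ret in kidney development, read 7.76, 7.53 and 7.89 in 5XFAD and 7.98, 8.06 and 7.90 in wild type. The groups were barely apart, with 5XFAD replicate 3 just below wild type replicate 3. The difference was -0.25, with a 95% interval from -0.52 to 0.011 (limma, Benjamini-Hochberg adjusted p = 0.81), and it was -0.16 without 5XFAD replicate 2. Spry4, another Sprouty inhibitor of receptor signals, read 6.94, 6.89 and 7.12 in 5XFAD and 7.13, 7.63 and 7.12 in wild type. A single array, wild type replicate 2, stood above all others, and the remaining arrays overlapped. The difference was -0.31, with a 95% interval from -0.65 to 0.030 (limma, Benjamini-Hochberg adjusted p = 0.83), and it was -0.14 without wild type replicate 2.

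Spred1, mutated in Legius syndrome in humans, read 8.14, 7.88 and 8.09 in 5XFAD and 8.26, 8.27 and 8.24 in wild type. The wild-type arrays were nearly alike and all lay above the 5XFAD arrays, by a narrow margin. The difference was -0.22, with a 95% interval from -0.46 to 0.019 (limma, Benjamini-Hochberg adjusted p = 0.82), and it was -0.14 without 5XFAD replicate 2. Spred2 read 7.70, 7.59 and 7.52 in 5XFAD and 7.81, 7.86 and 7.54 in wild type. Here wild type replicate 3 lay among the 5XFAD arrays, and the difference was -0.13 (95% interval -0.40 to 0.13; limma, Benjamini-Hochberg adjusted p = 0.93). It was -0.071 without wild type replicate 2 and -0.23 without wild type replicate 3.

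Etv4 and Etv5 are ETS transcription factors of the PEA3 group, induced by FGF receptors through ERK in many tissues. Etv5 read 5.87, 6.07 and 6.21 in 5XFAD and 6.51, 6.80 and 6.29 in wild type. The groups were apart, with 5XFAD replicate 3 and wild type replicate 3 the nearest arrays. Its difference of -0.48 (SE 0.15), a 0.718-fold level, did not pass (limma, Benjamini-Hochberg adjusted p = 0.61). A further Etv5 probe set, 17547943, at percentile 37.7, read 5.18, 5.42 and 5.25 in 5XFAD and 5.40, 5.52 and 5.38 in wild type, with overlap and a difference of -0.15 (SE 0.11). Etv4 read 5.38, 5.50 and 5.50 in 5XFAD and 5.56, 5.46 and 5.70 in wild type. It overlapped between the groups, and its difference was -0.11 (95% interval -0.35 to 0.12; limma, Benjamini-Hochberg adjusted p = 0.93). It was -0.072 without 5XFAD replicate 1 and -0.050 when wild type replicate 3 was left out. Etv4 and Dusp5 lay at percentiles 39.9 and 48.2 of all genes.

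**Figure D1:**
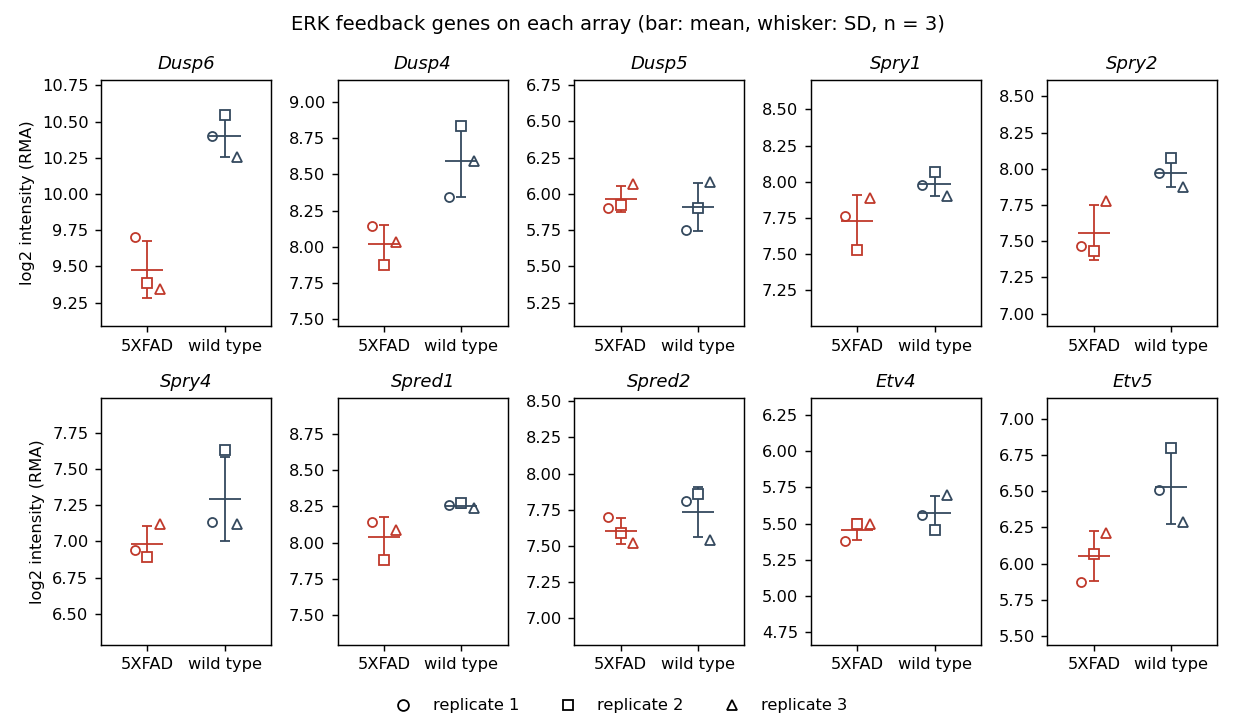
Log2 intensity of the 10 ERK feedback genes on each array, with 5XFAD left and wild type right, markers for replicates 1 to 3, a bar for the mean and whiskers for the SD (n = 3 each); every panel spans the same height. Dusp6, picked for its low signal, shows the widest gap (9.48 in 5XFAD and 10.40 in wild type). Of the other 9 genes, 5 lie below wild type without overlap, as do 6.62% of all genes, and Dusp5, Spry4, Spred2 and Etv4 overlap.

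Among the 9 genes taken by name, 0 passed the adjusted threshold, which 0.0225% of all genes passed (the lowest limma Benjamini-Hochberg adjusted p was 0.43, for Dusp4). At an unadjusted p under 0.05, limma gave 3 of the 9 as lower, namely Dusp4, Spry2 and Etv5, where 3.39% of all genes were lower by that rule. The 3 arrays of 5XFAD lay below the 3 of wild type in 5 of the 9, against 6.62% of all genes. A negative difference was found for 8 of the 9, against 52.8% of all genes. The median over the 9 was -0.25 and over the 10 with Dusp6 -0.28, while the median over all genes was -0.0092. These counts describe a set listed with earlier results known, and no test was made over the set.

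**Figure D2:**
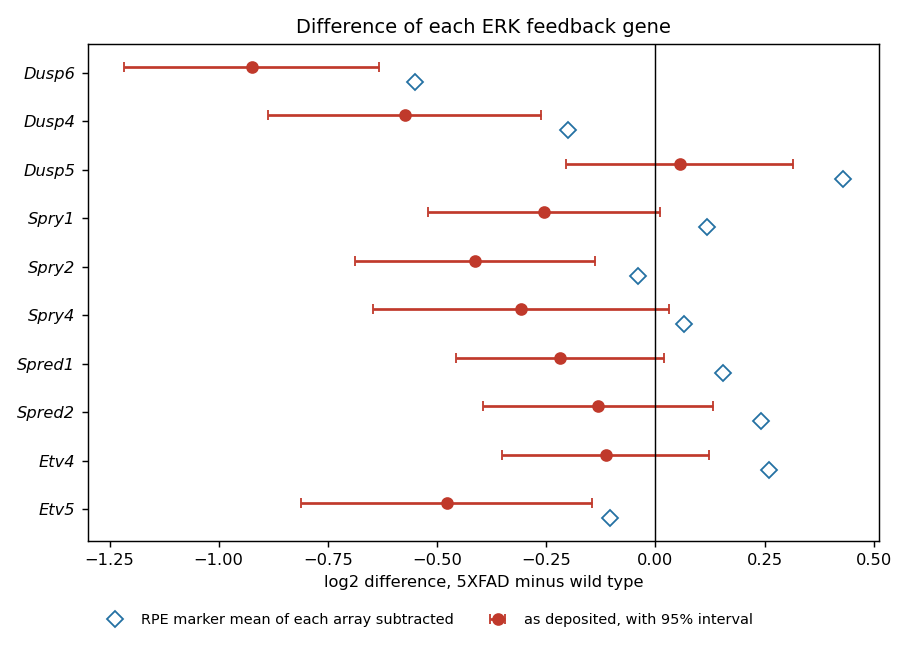
Log2 difference (5XFAD minus wild type, x axis) of each ERK feedback gene, with filled points and 95% intervals for the deposited values and open diamonds after the RPE marker mean of each array was subtracted. The deposited differences run from -0.92 for Dusp6 to 0.055 for Dusp5. The subtraction adds 0.37 to every difference, so that the median over all genes becomes 0.36. On that scale 6 of the 10 diamonds lie above 0, and their median is 0.092.

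Markers of the RPE were lower on the same arrays. All 12 RPE markers were measured. Their median difference was -0.42, and 11 were negative. The mean of the 12 was 10.34, 10.27 and 10.44 in 5XFAD, against 10.65, 10.80 and 10.73 in wild type, with no overlap. The lowest of the 12 was the opsin gene Rrh at -0.64 (SE 0.11), followed by the retinol esterifying enzyme gene Lrat at -0.62 (SE 0.11). No marker of the 12 differed as far as Dusp6. Since Dusp6 was picked for its low signal and the markers by name, that order follows in part from the choice. No RPE marker passed (limma, lowest Benjamini-Hochberg adjusted p = 0.15). At an unadjusted p under 0.05 in limma 9 of the 12 were lower, against 3.39% of all genes. Without overlap 8 of the 12 lay below wild type, against 6.62% of all genes.

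When the RPE marker mean was subtracted from every value on the same array, an alternative chosen after the data were seen, every difference shifted by 0.37 and the median over all genes was 0.36. On that scale the median of the 10 feedback genes was 0.092, and that of the 12 RPE markers, whose mean is 0 by construction, was -0.050. Dusp6, picked for its low signal in these same values, was the 1 member whose 5XFAD arrays all lay below the wild-type arrays. This held in 0.162% of all genes, and for Dusp6 it is a description only. The relative level of Dusp6 was -0.64, -0.89 and -1.10 in 5XFAD and -0.25, -0.25 and -0.47 in wild type, a difference of -0.55. Dusp4 differed by -0.20, Etv5 by -0.10 and Spry2 by -0.040, with overlap in each case. Dusp5 (0.43) and Etv4 (0.26) lay above wild type without overlap, as did 64.2% of all genes. The part of RPE content in the differences of the feedback genes was not tested beyond these values.

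Marker lists of other tissues were read in the same way. The mean of 11 measured surface epithelium markers, of 12 listed, ran from 6.46 to 7.10 in 5XFAD and from 5.54 to 5.64 in wild type. This list holds 4 of the 5 genes that passed over the whole table, namely the keratin genes Krt15 (3.55), Krt4 (3.21), Krt6a (1.86) and Krt13 (1.55), with limma Benjamini-Hochberg adjusted p from 0.0018 to 0.021. Of the 11 markers 9 were positive, and 7 lay above wild type without overlap, against 4.72% of all genes. Aldh3a1 (-0.066) and Perp (-0.015) were negative and overlapped. The mean of 12 skeletal muscle markers ran from 6.25 to 7.59 in 5XFAD and from 5.48 to 6.98 in wild type. With the muscle mean as a covariate, also chosen after the data were seen, the median of the 10 feedback genes was -0.22. In that fit Etv5 differed by -0.29 and Spred2 by -0.081, both over 1.5 times nearer to 0 than without the covariate, and Dusp5 by 0.0031. Spry1, Spry2 and Spry4 were nearer to 0 too. The others lay further from 0 than without it, namely Dusp6 (-0.95), Dusp4 (-0.63), Spred1 (-0.24) and Etv4 (-0.14). Means of the rod and cone markers (14 of 16 measured) overlapped, from 5.40 to 6.23 in 5XFAD and from 5.62 to 6.36 in wild type. Those of 12 Mueller glia and astrocyte markers overlapped too, from 7.93 to 8.33 in 5XFAD and from 7.74 to 8.05 in wild type. The mean of the retinal neuron markers (12 of 13 measured, 7 of them positive and 5 negative) was 6.05, 6.08 and 5.91 in 5XFAD. In wild type it was 5.87, 5.73 and 5.89, so the groups were barely apart. Pax6, an eye field transcription factor gene of that list, had the largest difference in it at 1.07 (SE 0.29) and did not pass (limma, Benjamini-Hochberg adjusted p = 0.51). It read 8.29, 8.54 and 8.30 in 5XFAD and 7.18, 8.08 and 6.65 in wild type. The narrow gap of the list mean rests on Pax6, and without that gene the groups overlap. Of 12 macrophage markers 10 were positive, and their mean overlapped between the groups, at 9.17 ± 0.17 in 5XFAD and 9.02 ± 0.031 in wild type. The means of the fibroblast and sclera, endothelium, choroid melanocyte, Schwann cell and lens lists overlapped as well, with differences from -0.11 for lens to 0.071 for melanocytes. RMA gives no level of exactly 0, so no marker was at 0, and the part of these tissues in the feedback genes was not tested.

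Within the groups, the order of the arrays was alike in many of the feedback genes. Wild type replicate 2 had the highest wild-type signal in 8 of the 10 genes, all but Dusp5 and Etv4, while it was the highest of its group in 36.8% of all genes. The same array had the highest RPE marker mean. Wild type replicate 3 was lowest of its group in 7 of the 10, against 35.3% of all genes, but replicate 1 had the lowest RPE marker mean of wild type (10.65, against 10.73 in replicate 3). In 5XFAD, replicate 2 was lowest in 5 of the 10, namely Dusp4, Spry1, Spry2, Spry4 and Spred1, against 33% of all genes. It was highest in none, against 33.6% of all genes, and it had the lowest RPE marker mean. 5XFAD replicate 3 was highest of its group in 6 of the 10, against 34.8% of all genes. Dusp6 and Spred2 were instead lowest on 5XFAD replicate 3, which had the highest RPE marker mean of its group. Without wild type replicate 2 the median of the 10 was -0.21, and without wild type replicate 3 it was -0.35.

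**Figure D3:**
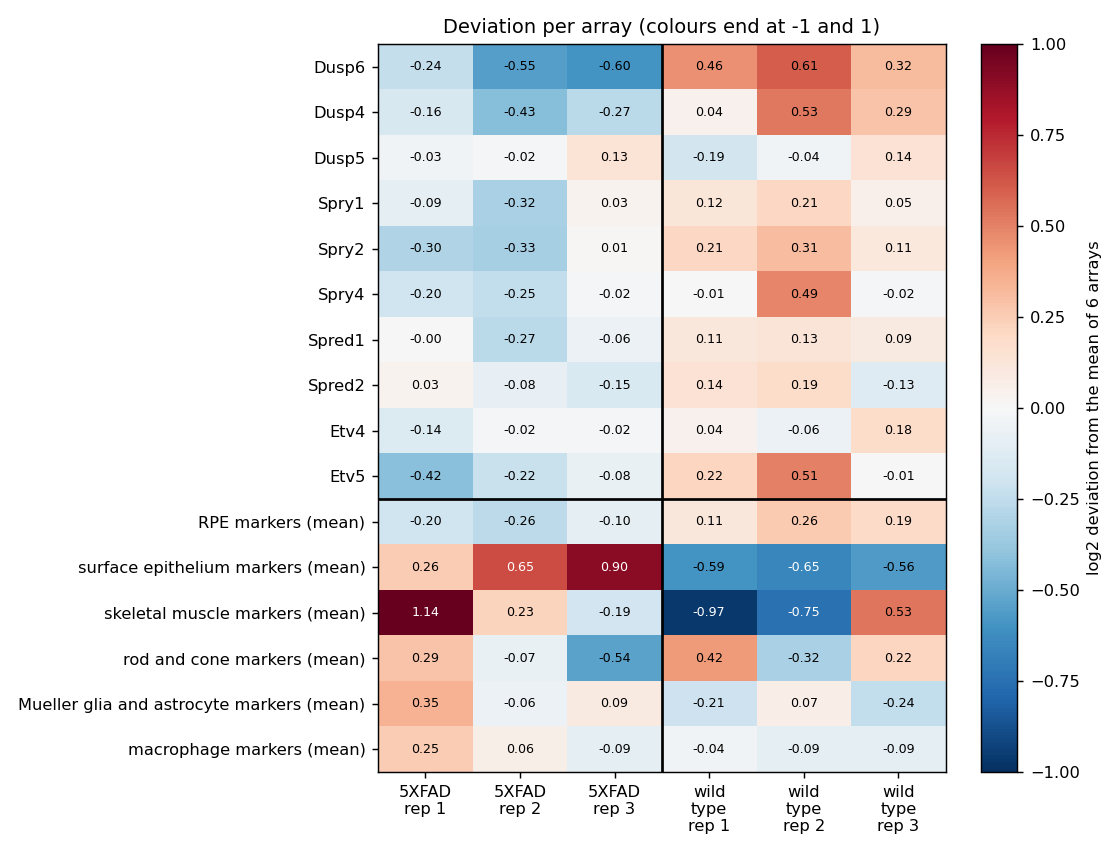
Deviation of each ERK feedback gene, and of the mean of 6 marker lists, from its mean over the 6 arrays (log2, colour and printed value), with 5XFAD columns left and wild-type columns right. Dusp6, Dusp4, Spred1 and the RPE markers are below their mean on every 5XFAD array and above it on every wild-type array. In each other feedback gene some array lies on the opposite side. Wild type replicate 2 has the highest value of Dusp6, Dusp4 and the RPE markers.

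Over the 6 arrays, the genes most like Dusp6 by Pearson's r were Ctf1, which encodes the cytokine cardiotrophin (r = 0.989), Larp4 (0.989), Slc37a2 (0.988), Me1, the cytosolic malic enzyme (0.988), and 9530036O11Rik (0.988). Their differences ran from -0.51 for Me1 to -0.15 for 9530036O11Rik. Of the other feedback genes, Dusp4 came nearest (r = 0.914, place 186 of 22179), then Spred1 (0.862, place 441) and Spry2 (0.808, place 771). Etv4 (0.329) and Dusp5 (-0.388) were least like it. These r values describe 6 arrays that differ by group, so that a large group difference raises r by construction.

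The rest of the RAS and ERK pathway was taken from 6 lists with 89 measured genes of 102. By limma, 0 passed in either direction (lowest Benjamini-Hochberg adjusted p = 0.53), against 0.0225% of all genes. At an unadjusted p under 0.05 in limma there were 3 higher and 7 lower. Of all 22180 genes, 640 were higher and 752 (3.39%) lower by that rule. Their median was -0.057. The other 13 genes of these lists were not analysed here.

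Growth factor genes split evenly, with 10 of 20 negative and a median of 0.0082. Pdgfc, a ligand of PDGF receptors, had the lowest difference and the groups did not overlap, at 7.91, 8.11 and 7.83 in 5XFAD and 8.46, 8.46 and 8.19 in wild type. Igf1, the insulin-like growth factor gene, differed by 0.43 (SE 0.15), Gdnf by 0.28 (SE 0.12) and Hgf, which encodes the ligand of Met, by 0.29 (SE 0.13). None of these passed (limma, Benjamini-Hochberg adjusted p from 0.54 for Pdgfc to 0.80 for Hgf).

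Receptor genes had a median of -0.017, with 12 of 18 negative. Met, the receptor of hepatocyte growth factor, read 9.93, 9.68 and 9.82 in 5XFAD and 10.08, 10.19 and 10.34 in wild type. Erbb3 differed by -0.30 (SE 0.11) and the EGF receptor gene Egfr by -0.25 (SE 0.11), and in these 3 of the 18 the 5XFAD arrays lay below the wild-type arrays, against 6.62% of all genes, without passing (limma, lowest Benjamini-Hochberg adjusted p = 0.53, for Met). The PDGF receptor gene Pdgfrb lay above wild type without overlap, as did 4.72% of all genes, at 9.76, 9.45 and 9.48 in 5XFAD and 9.42, 9.33 and 9.36 in wild type (difference 0.19, SE 0.11), and did not pass either. The FGF receptor genes Fgfr1 (-0.0038, SE 0.091) and Fgfr2 (-0.18, SE 0.12) overlapped.

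In the cascade from adaptors to kinases, 16 genes lay between -0.16 and 0.11 with a median of -0.031, and none was under an unadjusted p of 0.05 in limma. Map2k1, which encodes MEK1, differed by -0.16 (SE 0.11), the phosphatase gene Ptpn11 by -0.12 (SE 0.11) and the scaffold gene Ksr1 by 0.11 (SE 0.10). Inhibitors of RAS and receptors had a median of -0.13, with 8 of 12 negative. The lowest was Errfi1, a feedback inhibitor of the EGF receptor, at -0.35 (SE 0.14; limma, Benjamini-Hochberg adjusted p = 0.74). Lztr1, whose protein directs RAS to degradation, differed by -0.18 (SE 0.10). Nf1, which encodes the neurofibromin that Spred proteins recruit, differed by -0.14 (SE 0.10).

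Other ERK targets had a median of -0.066, with 12 of 14 negative. The cyclin gene Ccnd1 read 8.73, 8.64 and 9.06 in 5XFAD and 8.93, 9.34 and 9.34 in wild type, a difference of -0.40 (SE 0.15; limma, Benjamini-Hochberg adjusted p = 0.73) with overlap. The immediate early genes did not pass either, with Egr1 at -0.21 (SE 0.14), Fos at -0.067 (SE 0.15), Myc at -0.039 (SE 0.11) and Ier3 at 0.076 (SE 0.13). The targets Phlda1 (-0.14, SE 0.12) and Etv1 (-0.16, SE 0.14) also overlapped between the groups.

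Among 9 other MAP kinase phosphatases, 7 were negative and the median was -0.14. Dusp8, a phosphatase of stress-activated kinases, read 5.96, 5.83 and 5.99 in 5XFAD and 6.13, 6.30 and 6.25 in wild type, without overlap and without passing (difference -0.30, SE 0.10; limma, Benjamini-Hochberg adjusted p = 0.66). Dusp1, an immediate early phosphatase, differed by -0.36 (SE 0.20), with wild type replicate 1 far above the rest at 8.96. Dusp16 differed by -0.19 (SE 0.11).

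**Figure D4:**
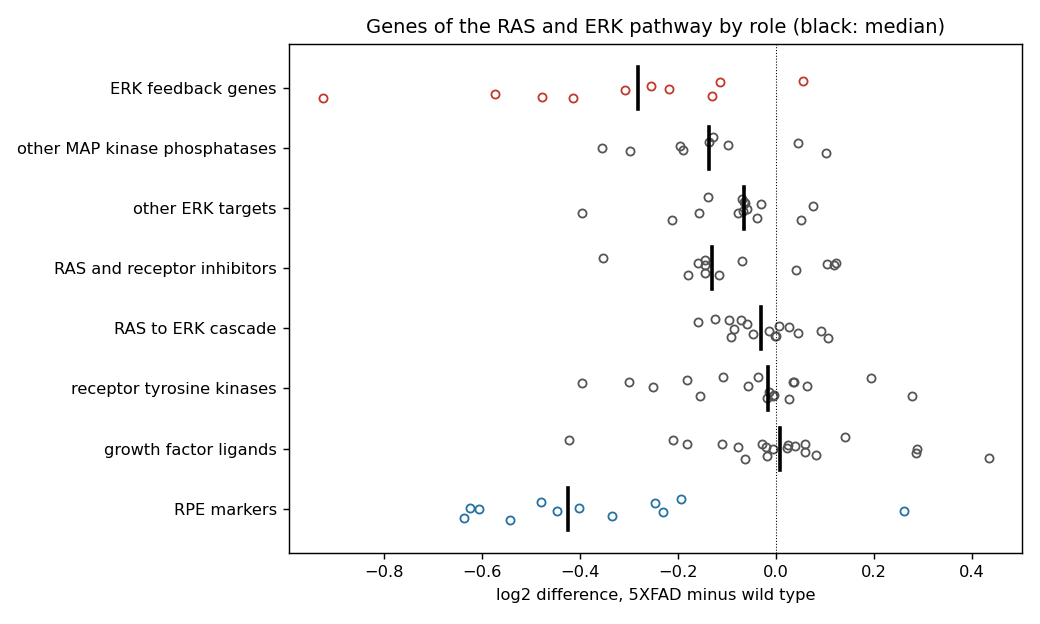
Log2 difference (5XFAD minus wild type, x axis) of single genes of the RAS and ERK pathway by role, with RPE markers for comparison; each circle is a gene, black bars are medians, and the vertical scatter has no meaning. The median is -0.28 for the ERK feedback genes, between -0.14 and 0.0082 for the other pathway lists and -0.42 for the RPE markers.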

How the data were processed

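Per the submitters' processing notes, the authors used RMA in Affymetrix Expression Console 1.1, and the deposited values are on the log2 scale, 1 per probe set and array. Build, filters and pooling are not stated in the labels used. Sample titles gave each array's group and replicate number. Of 33793 probe sets, 23521 had 1 gene symbol in the platform annotation, 1814 had several and 8458 had none, and only the 23521 were used. For the 1082 genes with several probe sets, the brightest on average over the 6 arrays was kept, leaving 22180 genes. Members, gene lists, alternatives and naming rules were chosen with earlier results of these data known.

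The comparison of 5XFAD with wild type used lmFit and eBayes of limma 3.58.1 under R 4.3.3, two-sided and with no covariate. P-values were adjusted over all 22180 genes by Benjamini-Hochberg, and 0.05 was the threshold. Intervals are 95% intervals of the same fit. Alternatives were other filters, normalizations, priors, probe set rules, a replicate block and arrays left out in turn. The steps were checked on simulated data. Named genes were every member with each probe set, the 2 to 4 genes of smallest unadjusted p in each pathway list, the immediate early genes Egr1, Fos, Ier3 and Myc, and the 5 genes of highest correlation with Dusp6. Fgfr1, Fgfr2, Rrh, Lrat, Pax6, Aldh3a1, Perp and the keratin genes were named after their values had been seen. Motif matches were exact.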

Additional observations from a re-analysis of the deposited data

How the results depend on the processing

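Under every alternative run on the adjusted threshold, 0 of the 9 feedback genes other than Dusp6 and 0 genes of the other pathway lists passed. At an unadjusted p under 0.05 limma gave 3 of the 9 and 1392 of all genes, and with a fold of at least 1.5 as well it gave 0 of the 9 and 159 of all genes. The count over all genes was 5, and it was 8 without the dimmest 30% of genes, 9 with arrays centred on their medians (9 higher and 0 lower), 8 with array weights and 9 when the prior was trended and robust. It ran from 3 without wild type replicate 3 to 19 without wild type replicate 2 when single arrays were left out. The median of the 10 feedback genes ran from -0.36 to -0.21 with 1 array left out in turn, and was -0.36 without the dimmest 50% of genes, which leaves out Dusp5 and Etv4. It was 0.092 after subtraction of the RPE marker mean, where Spry1 (0.12), Spry4 (0.065), Spred1 (0.16), Spred2 (0.24) and Etv4 (0.26) turned positive, since that step adds 0.37 to every difference. With single arrays left out, Dusp5 ran from -0.024 without wild type replicate 1 to 0.14 without wild type replicate 3, and the cause was not tested. The difference of Dusp6 ran from -1.04 to -0.55 over all alternatives. With the replicate number as a block, 0 of the 9 and 6 of all genes passed, and the median of the 10 was unchanged at -0.28. Deviations of same-numbered arrays correlated at -0.056, -0.050 and 0.13 for replicates 1, 2 and 3. The highest correlation of the same 5XFAD arrays with a wild-type array of another number was 0.12, 0.13 and -0.064. So few values cannot decide whether the numbers pair the samples. Background and scan effects were not tested, since no scanner values were used.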
